A study of Mus musculus with 16 samples.

Results

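Mas-related G protein-coupled receptors are a family of receptors, many of them found in sensory neurons. Of the family, 7 members, *Mrgprd*, *Mrgpra3*, *Mrgprx1*, *Mrgprb4*, *Mrgprb5*, *Mrgpre* and *Mrgprf*, were described here across 4 kinds of mouse sensory ganglia. They were taken by gene symbol from read counts of 22609 symbols, of which 20 belonged to the family. Bulk RNA-seq was available for 16 libraries, 4 each from the trigeminal ganglion (TG), the nodose and jugular complex of the vagus nerve (NG/JG), the lumbar dorsal root ganglia L3 to L5 (L3-L5 DRG) and the thoracolumbar dorsal root ganglia T10 to L1 (T10-L1 DRG). All groups came from naïve male C57BL/6J mice of 8 to 12 weeks that carried Pirt cre/- and Rosa26 LSL-tdTomato/+, so that Cre made under the sensory neuron gene *Pirt* turned on the red protein TdTomato. Brightly red cells went through the sorter in consecutive rounds, which leaves out neurons with weak TdTomato. There was no treatment and no second genotype, and the sources used here do not say how many animals gave a library, so the p-values measure the spread between libraries.

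Many of these receptors sit on the endings of small sensory neurons that serve skin and other tissues. *Mrgprd* responds to beta-alanine and marks the main class of nonpeptidergic nociceptors of skin. *Mrgpra3* responds to the itch-causing drug chloroquine and *Mrgprx1*, the mouse gene long called MrgprC11, to peptides cut from proenkephalin, and both mark itch neurons. *Mrgprb4* marks fine fibres of hairy skin that respond to stroking. *Mrgpre* and *Mrgprf* have no ligand in general use, and *Mrgprf* was first known as RTA, a receptor cloned from aorta. Many of the family signal through Gq and phospholipase C beta, and the transcription factor Runx1 switches several of them on during development.

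Libraries held 4735624 to 13333318 reads on genes (median 8332661), so that 3 counts, used as a floor, were worth 0.225 to 0.633 CPM, a count scaled by its library's reads on genes, which covers counting error only. Between 30.2% and 66.9% of uniquely aligned reads fell outside counted genes, the most in L3-L5 DRG library 4. The animals are given as male, yet every library had 1279 to 8362 reads on *Xist* and none had a read on the 13 counted genes of chromosome Y. The summed CPM of 8 sensory neuron markers ran from 867 to 10611. It was lowest in TG library 1 (867) and L3-L5 DRG library 4 (1194) and highest in L3-L5 DRG libraries 2 and 3 (9215 and 10611). Markers of Schwann cells summed to 9552 to 65144 CPM and those of satellite glia to 11526 to 62068 CPM, so none of the 16 libraries held neuronal RNA alone. *P2rx2*, an ATP receptor subunit of nodose neurons, was at 36.8 to 967 CPM in NG/JG libraries 1 to 3 and at 0.103 CPM in NG/JG library 4. What depends on TG library 1 or L3-L5 DRG library 4 is given below with and without them.

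All 7 genes lie on chromosome 7 and code for protein. On NCBIM37, the assembly that mm9 corresponds to, *Mrgprf* (chr7:152486733-152495462, + strand) ended 5277 bp before the start of *Mrgprd* (chr7:152500740-152509964, + strand). *Mrgpre* (chr7:150964270-150970405, − strand) lay apart from both. The other 4 fell within 610 kb, all on the − strand: *Mrgpra3* (chr7:54844320-54856742), *Mrgprx1* (chr7:55276341-55282971), *Mrgprb5* (chr7:55423353-55424384) and *Mrgprb4* (chr7:55453583-55454548). Coding sequences of *Mrgprd* and the other members were 54.6% to 58% identical, whereas those of *Mrgprb4* and *Mrgprb5* were 84.5% identical. This bears on counting, because a read of 50 bases with more than one place in the genome is dropped by the counter. The share of 50-base exon windows found nowhere else in the genome was 100% for *Mrgprd* and *Mrgprf*, 99.2% for *Mrgprb5*, 98.1% for *Mrgprb4*, 97% for *Mrgpre*, 92.7% for *Mrgprx1* and 88.8% for *Mrgpra3*. The windows were compared for exact copies only, so near copies that an aligner accepts are not counted in these shares.

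RefSeq gives a window of 250 bases before to 50 bases after the gene start, on GRCm38.p6, for 5 of the 7 members. The windows of *Mrgprb5* (chr7:48168936-48169235, − strand) and *Mrgprb4* (chr7:48199129-48199428, − strand) are printed because these near copies had unlike counts, with *Mrgprb5* read in 10 of 16 libraries and *Mrgprb4* in 2. They were identical at 246 of 300 aligned positions (82%), and capitals mark the bases that differ. In both, the annotated gene start is the start codon, so the window may lie downstream of the true promoter.
Mrgprb5: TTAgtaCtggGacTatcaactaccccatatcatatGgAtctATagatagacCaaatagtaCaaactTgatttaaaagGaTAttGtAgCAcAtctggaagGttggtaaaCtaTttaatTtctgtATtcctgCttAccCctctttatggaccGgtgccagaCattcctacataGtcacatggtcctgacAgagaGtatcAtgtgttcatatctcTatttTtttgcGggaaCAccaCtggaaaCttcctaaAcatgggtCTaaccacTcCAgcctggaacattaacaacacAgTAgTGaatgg
Mrgprb4: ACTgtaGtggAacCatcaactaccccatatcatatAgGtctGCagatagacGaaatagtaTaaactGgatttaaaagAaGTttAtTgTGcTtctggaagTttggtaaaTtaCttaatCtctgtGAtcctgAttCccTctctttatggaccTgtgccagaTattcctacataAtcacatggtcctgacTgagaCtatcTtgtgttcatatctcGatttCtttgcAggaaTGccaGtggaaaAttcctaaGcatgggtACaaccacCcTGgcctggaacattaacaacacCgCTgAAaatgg
The hexamer TGTGGT, the core bound by Runx factors, or its reverse complement ACCACA was found in 16.8% of 32851 such windows. It was in 0 of the 5 members' windows, which says only that these letters are not there.

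*Mrgprd*, the beta-alanine receptor, was the most abundant member in both kinds of DRG and nearly missing from NG/JG. It was at 285, 808, 439 and 25.3 CPM in L3-L5 DRG libraries 1 to 4. In T10-L1 DRG it was at 23.7, 195, 309 and 154 CPM. TG libraries had 0.381, 49, 18.2 and 27.4 CPM, and NG/JG libraries 0.696, 0.683, 1.93 and 0.207 CPM, from 2 to 14 counts each. Every DRG library was above every NG/JG library, and L3-L5 DRG library 4 and T10-L1 DRG library 1 fell among the TG libraries. Mean levels were 389 ± 327 CPM for L3-L5 DRG, 170 ± 118 for T10-L1 DRG, 23.7 ± 20.2 in TG and 0.88 ± 0.739 in NG/JG (SD, n = 4). Without L3-L5 DRG library 4 the L3-L5 DRG mean was 511 CPM, and without TG library 1 the TG mean was 31.5 CPM. In bulk RNA, fewer cells of a type and less RNA per cell cannot be told apart.

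A single test per gene of any difference among the 4 ganglia, edgeR's quasi-likelihood F test on all 16 libraries with Benjamini-Hochberg adjustment over 14236 genes, called *Mrgprd* (F = 15.2, adjusted p = 0.00947). It was the 1 member of 6 tested that was called, where 3.01% of all genes were. At an unadjusted p under 0.05 there were 4 members, *Mrgprd*, *Mrgpre*, *Mrgprb5* and *Mrgprx1*, against 17.5% of genes. DESeq2 is given as a second tool. On counts simulated for T10-L1 DRG over NG/JG, with the spread as estimated by edgeR, 200 genes were changed 8-fold. DESeq2 called 201 genes, of which 94 had been changed, and edgeR called 36, all changed. Calls by DESeq2 alone are thus weaker evidence, and a gene not called by edgeR may still differ. The other pairs and the test of any difference were not simulated. The likelihood-ratio test of DESeq2 called 3 members, *Mrgprd*, *Mrgpre* and *Mrgprb5*, against 12.7% of genes. The adjusted p of *Mrgprd* stayed between 1.07e-06 and 0.0438 over 21 settings, which include each library left out in turn.

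The level of *Mrgprd* was also set against the neuronal content of each library, as a description. Its CPM was 5.8 ± 3.2% of the summed CPM of the 8 sensory neuron markers for L3-L5 DRG and 5.93 ± 3.38% for T10-L1 DRG. In TG it was 1.08 ± 1.12% and in NG/JG 0.0281 ± 0.0201% (SD, n = 4). On this scale the means of the 2 kinds of DRG lay within each other's SD, and the lowest DRG library (1.19%) was above the highest NG/JG library (0.0493%). The neuron markers summed to 1412 to 4759 CPM in NG/JG, but single markers of the list differed. In NG/JG *Avil* was at 36.6 to 132 CPM and *Rbfox3* at 10.4 to 31.1 CPM. Over the DRG libraries they were at 82.6 to 1060 and 26.9 to 222 CPM. *Snap25* (363 to 1309 CPM in NG/JG, 192 to 1524 in DRG) and *Scn9a* (31.4 to 270 and 17.7 to 324 CPM) covered similar ranges. Between ganglia, markers of other cells moved in part with *Mrgprd*. The 3 markers of peptidergic neurons summed to 4.44 to 323 CPM in NG/JG, 539 to 2856 in TG, 468 to 6039 for L3-L5 DRG and 327 to 2037 for T10-L1 DRG. The 4 counted neutrophil markers summed to 0.341 to 1.53 CPM in NG/JG, 0 to 39.3 in TG, 5.06 to 480 for L3-L5 DRG and 61 to 899 for T10-L1 DRG. Over the 16 libraries the correlation of *Mrgprd* with these sums, as log2(CPM + 1), was 0.70 and 0.67, and with the sum of the sensory neuron markers 0.48. With the sum of immediate early genes it was -0.56. In L3-L5 DRG libraries 1 to 4 the neutrophil sum was 480, 5.06, 119 and 298 CPM. The peptidergic sum was 1392, 4209, 6039 and 468 CPM there. In T10-L1 DRG libraries 1 to 4 the neutrophil sum was 560, 389, 61 and 899 CPM. The peptidergic sum was 2037, 741, 1577 and 327 CPM there. The part of these cells or genes in the level of *Mrgprd* was not tested.

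**Figure D1:**
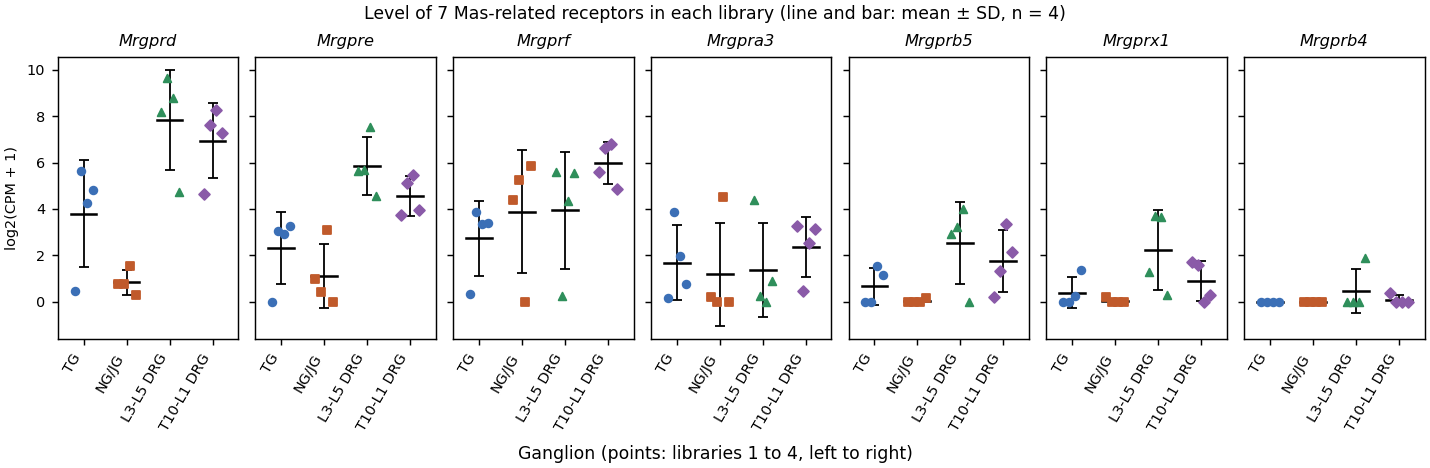
Level of each of the 7 receptors as log2(CPM + 1) on the vertical axis, in the 4 libraries of each ganglion (points, library 1 to 4 from left to right; line and bar, mean ± SD, n = 4). *Mrgprd* and *Mrgpre* were highest in the 2 kinds of DRG. *Mrgprf* had its highest mean in T10-L1 DRG, with single libraries of the other ganglia near 0. *Mrgpra3* stood high in single libraries of NG/JG and L3-L5 DRG.

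*Mrgpre*, an orphan receptor, had means in the same order of ganglia, below those of *Mrgprd* except in NG/JG. It was at 49.2, 49.5, 184 and 22.4 CPM in L3-L5 DRG libraries 1 to 4. T10-L1 DRG libraries had 12.5, 33.5, 43.5 and 14.3 CPM. TG libraries had 0, 7.28, 6.53 and 8.6 CPM, and NG/JG libraries 0.974, 0.341, 7.6 and 0 CPM. All 8 DRG libraries were above all 8 TG and NG/JG libraries, and the value of L3-L5 DRG library 3 stood well above the others. The means were 76.2 ± 72.8 CPM for L3-L5 DRG, 26 ± 15.1 for T10-L1 DRG, 5.6 ± 3.83 in TG and 2.23 ± 3.6 in NG/JG (SD, n = 4). Without NG/JG library 3 the NG/JG mean was 0.438 CPM, and without L3-L5 DRG library 3 the L3-L5 DRG mean was 40.4 CPM. The test of any difference gave an unadjusted p of 0.0131 and an adjusted p of 0.152 by edgeR and 0.015 by DESeq2. Across the 16 libraries, log2(CPM + 1) of *Mrgpre* and *Mrgprd* had a Pearson correlation of 0.92 and, in the 8 DRG libraries alone, of 0.70, given as a description of libraries that differ in neuronal content.

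*Mrgprf*, the member known from aorta, had another order of levels, with its highest mean in T10-L1 DRG and its lowest in TG. T10-L1 DRG libraries 1 to 4 had 47.4, 98, 109 and 28.2 CPM. L3-L5 DRG libraries had 47.8, 0.198, 19 and 46.5 CPM. NG/JG libraries had 19.9, 37, 0 and 56.8 CPM, and TG libraries 0.254, 13.6, 9.28 and 9.48 CPM. T10-L1 DRG was above TG in every library, while NG/JG and L3-L5 DRG each held 1 library at or next to 0. The means were 70.8 ± 39.2 CPM in T10-L1 DRG, 28.4 ± 24.2 in NG/JG, 28.3 ± 23 in L3-L5 DRG and 8.15 ± 5.62 in TG (SD, n = 4), and the test of any difference gave an adjusted p of 0.722. Counts of *Mrgprf* did not follow those of *Mrgprd*, its neighbour on the chromosome, with a Pearson correlation of 0.20 over 16 libraries.

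Markers of mural and smooth muscle cells moved with *Mrgprf* in part. Their sum over 10 genes was 326 to 1456 CPM for T10-L1 DRG, 64.2 to 508 for TG, 54.5 to 1522 for L3-L5 DRG and 67.2 to 236 for NG/JG. The 3 libraries in which *Mrgprf* was at 0.254 CPM or below, TG 1, NG/JG 3 and L3-L5 DRG 2, had sums of 64.2, 67.2 and 54.5 CPM. The markers of the list differed in the NG/JG libraries. *Tagln*, a smooth muscle actin-binding protein, was at 91.7, 65.1, 19.2 and 124 CPM in libraries 1 to 4, highest in library 4 and lowest in library 3, as *Mrgprf* was. *Cspg4* reached 67.8 CPM and *Mylk* 23.5 CPM, and *Pdgfrb* was at 0 in library 4 and at 21 to 30.3 CPM in libraries 1 and 3, with its highest value in library 2. In contrast, *Acta2*, *Rgs5*, *Myh11*, *Des*, *Cnn1* and *Notch3* were each below 1 CPM in the 4 libraries. Over the 16 libraries the correlation of *Mrgprf* with the marker sum, both as log2(CPM + 1), was 0.67, and with the sum of the sensory neuron markers it was -0.10. It was 0.54 with the neutrophil sum, 0.41 with that of fibroblast markers and 0.38 with that of immediate early genes. By ranks (Spearman) it was 0.56 with the mural sum and also 0.56 with the immediate early sum. The part of mural cells or of these other genes in the level of *Mrgprf* was not tested.

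**Figure D2:**
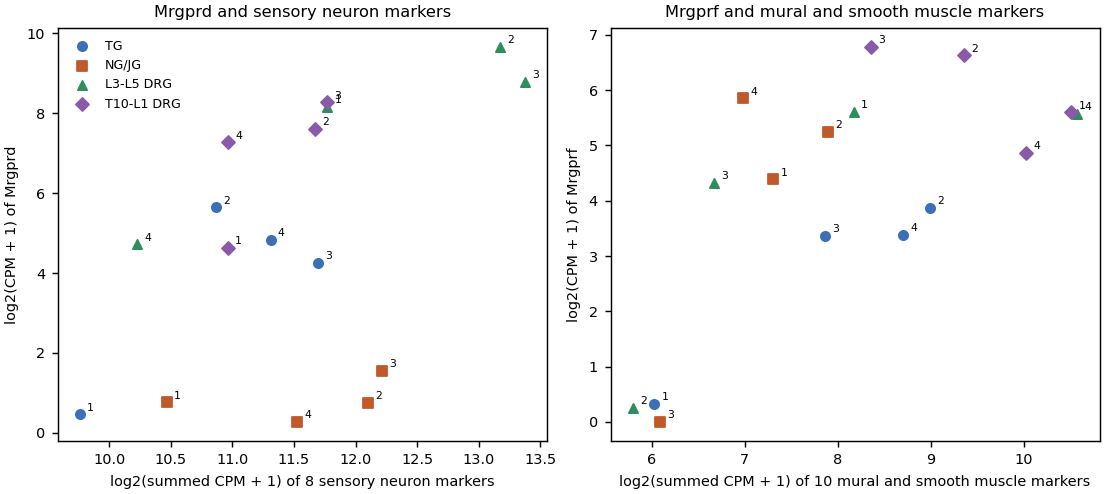
Left, log2(CPM + 1) of *Mrgprd* against the log2 summed CPM of 8 sensory neuron markers; right, *Mrgprf* against 10 mural and smooth muscle markers, with 1 point per library and its number beside it. NG/JG libraries had 1412 to 4759 CPM of neuron markers with *Mrgprd* below 2 CPM, and the 3 libraries lowest in mural markers were the 3 lowest in *Mrgprf*.

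*Mrgpra3*, the chloroquine receptor, rested on single libraries. L3-L5 DRG libraries 1 to 4 had 19.7, 0.198, 0 and 0.845 CPM. NG/JG libraries had 0.139, 0, 22.1 and 0 CPM. TG libraries had 0.127, 13.4, 2.92 and 0.702 CPM, and T10-L1 DRG libraries 8.56, 0.381, 4.77 and 7.8 CPM. In L3-L5 DRG and in NG/JG nearly all the counts came from 1 library of 4, and all 4 ganglia overlapped. The means were 5.2 ± 9.71, 5.56 ± 11, 4.28 ± 6.18 and 5.38 ± 3.71 CPM in the same order (SD, n = 4), and the adjusted p for any difference was 1. Leaving out that 1 library took the mean to 0.348 CPM for L3-L5 DRG and to 0.0464 CPM for NG/JG.

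*Mrgprb5*, a member of the rodent B group, was read mostly in DRG libraries. It was at 6.61, 8.34, 15.2 and 0 CPM in libraries 1 to 4 of L3-L5 DRG, at 0.153, 1.52, 9.12 and 3.45 CPM in those of T10-L1 DRG and at 0, 0, 1.89 and 1.23 CPM in TG. The 4 NG/JG libraries had 1 count among them, in library 4. With 337 counts in L3-L5 DRG, the ratio of pooled levels to NG/JG was 298 with an exact 95% counting interval of 53.1 to 11793, and with 174 counts in T10-L1 DRG it was 134 (23.8 to 5342). These intervals leave out the spread between libraries. The test of any difference gave an adjusted p of 0.22 by edgeR and 0.0444 by DESeq2.

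*Mrgprx1*, the receptor for proenkephalin peptides, was at 1.46, 11.9, 11.5 and 0.211 CPM in libraries 1 to 4 of L3-L5 DRG and at 2.29, 2, 0 and 0.225 CPM in T10-L1 DRG. TG libraries had 0, 0, 0.172 and 1.58 CPM, and NG/JG had 1 count in library 1. L3-L5 DRG libraries 2 and 3, which were also the richest in sensory neuron markers, were the highest of the 16. The adjusted p for any difference was 0.221 by edgeR and 0.0525 by DESeq2.

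*Mrgprb4*, the receptor of stroking-sensitive fibres, had 13 counts (2.75 CPM) in L3-L5 DRG library 4, 2 counts in T10-L1 DRG library 1 and none in the other 14 libraries. It was too low for the test of any difference by edgeR. A count of 0 over all TG libraries allows a level of up to 0.12 CPM, and over all NG/JG libraries of up to 0.091 CPM, as far as counting error goes. L3-L5 DRG library 4 is the library of that group lowest in neuron markers, and it had no read of *Mrgprb5*. L3-L5 DRG library 4 and T10-L1 DRG library 1 had the largest shares of uniquely aligned reads outside counted genes, 66.9% and 51.9%. They also had the most genes detected, 18571 and 16694, and *Mrgprb4* is annotated with 1 exon. What reads from outside genes added to these counts was not tested.

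Levels of different genes were compared per exon length, as RPKM, the CPM divided by the annotated exon length in kilobases, and gave each ganglion its own make-up. In L3-L5 DRG the means were 125 RPKM for *Mrgprd*, 20.3 for *Mrgpre*, 12.8 for *Mrgprf*, 7.31 for *Mrgprb5*, 5.3 for *Mrgprx1*, 4.01 for *Mrgpra3* and 0.71 for *Mrgprb4*. In T10-L1 DRG *Mrgprd* (54.7 RPKM) and *Mrgprf* (32 RPKM) led, and in TG *Mrgprd* (7.62), *Mrgprf* (3.68) and *Mrgpra3* (3.31). The TG mean of *Mrgpra3* came mostly from library 2, at 10.3 RPKM beside 0.098 to 2.26 RPKM in the other libraries. In NG/JG *Mrgprf* led at 12.8 RPKM, *Mrgpra3* had 4.3 RPKM through 1 library, and *Mrgprd* had 0.282 RPKM. *Mrgprd* made up 61.4% to 89.1% of the summed RPKM of the 7 receptors in L3-L5 DRG libraries 1 to 3 and 21% in library 4, where *Mrgprf* made up 54.2%. In NG/JG libraries 1, 2 and 4 *Mrgprf* made up 92.7%, 98.2% and 99.4%, whereas in library 3 it was at 0 and *Mrgpra3* made up 86.6%. The leading receptor thus differed between libraries of the same ganglion in NG/JG and in both kinds of DRG. In TG libraries 2 to 4 *Mrgprd* led, with 36.5% to 47.7%. TG library 1 held 6 counts of the 7 receptors, too few to name a leader, with 36.5% *Mrgprd*, 34.2% *Mrgprf* and 29.3% *Mrgpra3*.

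**Figure D3:**
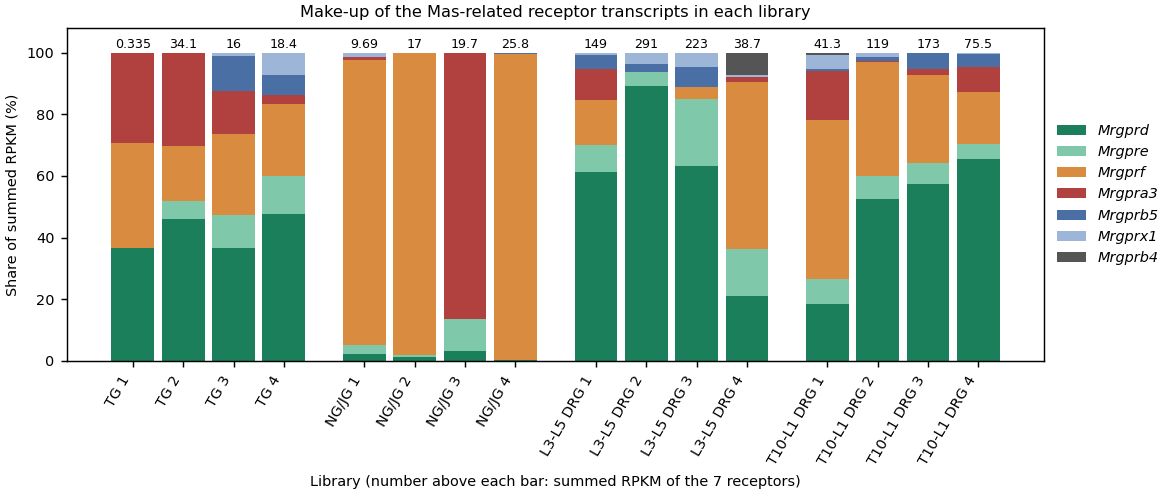
Share of each receptor in the summed RPKM of the 7 receptors (vertical axis, percent) in each of the 16 libraries, with the summed RPKM above each bar. *Mrgprd* led in 3 of 4 libraries of both kinds of DRG and in TG libraries 2 to 4, *Mrgprf* in 3 of 4 NG/JG libraries. The bar of TG library 1 rests on 6 counts, too few to name a leader.

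Pairs of ganglia were then compared in fits of 8 libraries, by the quasi-likelihood test of edgeR, with Benjamini-Hochberg adjustment over all genes tested; each ganglion takes part in 3 of the 6 pairs, so the comparisons share libraries. No member reached an adjusted p under 0.05 in any pair, which is given with the background of each comparison. In the simulation edgeR missed most of the changed genes, so a receptor that was not called may still differ. A percentage below is the share of all genes tested that met the same condition.

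L3-L5 DRG, which serve the hind limb, were compared with T10-L1 DRG, which serve trunk and viscera. Of 6 members tested 0 were called, as was 0% of genes. *Mrgpre* was the 1 member with an unadjusted p under 0.05, against 6.07% of genes, with a log2 fold change of 1.55 (SE 0.69, adjusted p = 0.785). *Mrgprd* had a log2 fold change of 1.17 (SE 0.92, adjusted p = 0.834) and *Mrgprx1* of 2.52 (SE 1.58, adjusted p = 0.804), both higher in L3-L5 DRG. *Mrgprf* was lower there, with -1.38 (SE 1.01, adjusted p = 0.825). DESeq2 called none of the 7 and 0.499% of genes, and no member had levels without overlap between the groups, which 3.70% of genes had. No receptor separated the 2 kinds of DRG beyond the spread between 4 libraries each.

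NG/JG neurons serve the viscera of chest and abdomen, and for *Mrgprd* and *Mrgpre* the log2 fold changes of both kinds of DRG were larger over NG/JG than over TG. For T10-L1 DRG over NG/JG, *Mrgprd* had a log2 fold change of 7.56 (SE 1.03, 189-fold, adjusted p = 0.0588) and the sixth-lowest p of 12430 genes. *Mrgpre* had 3.51 (SE 1.66, adjusted p = 0.901). edgeR called 0 of 4 members tested and 0.0322% of genes; at an unadjusted p under 0.05 it was 1 member, *Mrgprd*, and 5.91% of genes. DESeq2 called 2, *Mrgprd* (adjusted p = 9.8e-13) and *Mrgprb5* (adjusted p = 0.00606), and 6.13% of genes. *Mrgprd*, *Mrgpre* and, outside the test for low counts, *Mrgprb5* were higher in every T10-L1 DRG library than in any NG/JG library; among genes tested by edgeR 2 of 4 members and 8.04% of genes had no overlap. With 1 library left out in turn, the adjusted p of *Mrgprd* by edgeR was 0.0453 without T10-L1 DRG library 1 and 0.0846 to 0.242 without any one of the others.

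For L3-L5 DRG over NG/JG, *Mrgprd* had a log2 fold change of 8.71 (SE 1.19, 418-fold) and the lowest p of 12240 genes, with an adjusted p of 0.168. *Mrgpre* had 5.04 (SE 1.59, adjusted p = 0.393) and *Mrgprf* -0.20 (SE 1.64, adjusted p = 0.999). edgeR called 0 of 3 members tested and 0% of genes, and at an unadjusted p under 0.05 it was 2 members, *Mrgprd* and *Mrgpre*, and 6.04% of genes. DESeq2 called 4, *Mrgprd*, *Mrgpre*, *Mrgprb5* and *Mrgprx1*, all higher in L3-L5 DRG, and 5.66% of genes. Levels of *Mrgprd*, *Mrgpre* and *Mrgprx1* did not overlap, which among genes tested was so for 2 of 3 members and 7.34% of genes. Without L3-L5 DRG library 4, the adjusted p of *Mrgprd* by edgeR was 0.017 and the log2 fold change 9.10, and without any one of the others the adjusted p was 0.177 to 0.362.

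TG neurons serve the face and the meninges, and TG levels lay between those of DRG and NG/JG for *Mrgprd* and *Mrgpre* but were the lowest for *Mrgprf*. For T10-L1 DRG over TG, *Mrgprf* had a log2 fold change of 2.68 (SE 0.91, 6.41-fold, adjusted p = 0.114) and *Mrgprd* of 2.42 (SE 1.05, 5.34-fold, adjusted p = 0.214). edgeR called 0 of 5 members tested, where 5.87% of genes were called; 2 members, *Mrgprf* and *Mrgprd*, and 21.6% of genes had an unadjusted p under 0.05. DESeq2 called *Mrgprf* alone of the members (adjusted p = 0.0203) and 15.4% of genes. *Mrgprf* and *Mrgpre* had no overlap between the groups, as had 18.5% of genes. Without TG library 1, in which few neuron markers were read, edgeR called *Mrgprf* (log2 fold change 2.27, adjusted p = 0.00873), but the number of all genes called also went from 758 to 3583. Without any one of the other libraries the adjusted p of *Mrgprf* by edgeR was 0.123 to 0.281.

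For L3-L5 DRG over TG, *Mrgprd* had a log2 fold change of 3.61 (SE 1.20, 12.2-fold, adjusted p = 0.145) and *Mrgpre* of 3.37 (SE 1.16, 10.3-fold, adjusted p = 0.156). edgeR called 0 of 4 members and 0% of genes; these 2 members and 18.2% of genes had an unadjusted p under 0.05, and DESeq2 called the same 2 and 11.3% of genes. *Mrgpre* had no overlap, as had 15.9% of genes. Without TG library 1 edgeR called *Mrgpre* (log2 fold change 2.93, adjusted p = 0.0307) and 2038 genes in all; without any other single library the adjusted p of *Mrgpre* was 0.128 to 0.448. Without TG library 1 and L3-L5 DRG library 4, a setting chosen after seeing the data, it called *Mrgprd* and *Mrgpre* (log2 fold changes 3.67 and 3.34). In that setting 2564 genes were called in all, from 0 in the fit of 8 libraries.

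For TG over NG/JG, *Mrgprd* had a log2 fold change of 5.02 (SE 1.76, 32.5-fold, adjusted p = 0.291). edgeR called 0 of 3 members and 0.0510% of genes; *Mrgprd* alone of the members and 10% of genes had an unadjusted p under 0.05. DESeq2 called *Mrgprd* (adjusted p = 0.00225) and 6.35% of genes. TG library 1 had 3 counts of *Mrgprd* and lay within the range of NG/JG, so no member was without overlap, where 9.63% of genes were. Without TG library 1 edgeR called 325 genes in all, from 6 in the fit of 8 libraries, and still no member. *Mrgprf* was lower in TG, with -1.63 (SE 1.72, adjusted p = 0.878).

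**Figure D4:**
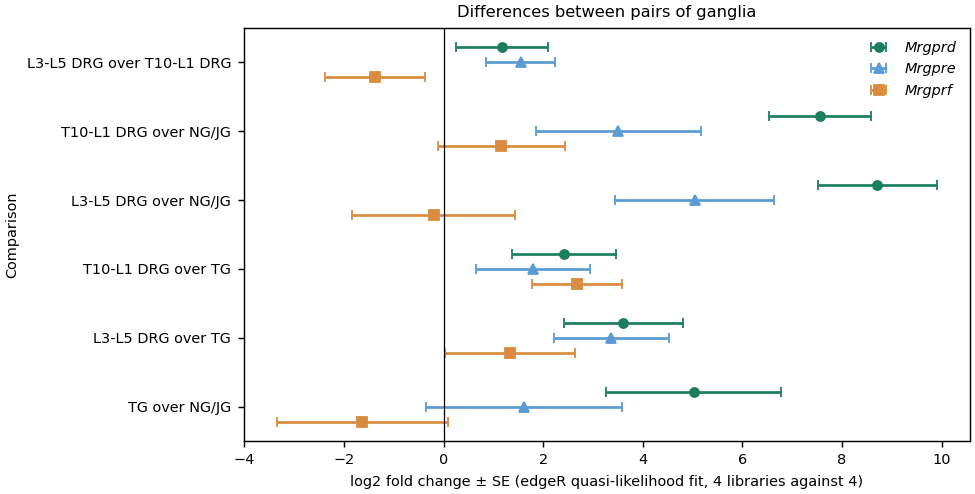
Log2 fold change ± SE from edgeR's fit (horizontal axis) of *Mrgprd*, *Mrgpre* and *Mrgprf* for the 6 pairs of ganglia (4 libraries against 4, first named over second). *Mrgprd* was farthest from 0 against NG/JG, at 8.71, 7.56 and 5.02, and none of the differences had an adjusted p under 0.05.

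Genes whose log2(CPM + 1) was most like a member's over the 16 libraries were sought among 14011 genes. For *Mrgprd* they were *Syt6*, a synaptotagmin (Pearson r = 0.98), *Agtr1a*, the angiotensin II receptor (0.96), and *Gins3*, a replication factor (0.96). *Syt6* averaged 61.1 CPM in T10-L1 DRG, 62.4 in L3-L5 DRG, 6.89 in TG and 0.299 in NG/JG. For *Mrgpre* they were *1810041L15Rik* (0.95), *Cacnb1*, a calcium channel subunit (0.94), and *Mlst8*, a subunit of the mTOR complexes (0.94). *Mrgprb5* was most like *Tmem200a* (0.94), *Zfp52* (0.94) and *Lpar5*, a lysophosphatidic acid receptor (0.91). *Mrgprf* was most like *Igsf10* (0.91), *Prrg1* (0.90) and *Ankrd28* (0.87), and *Mrgpra3* like *1810021B22Rik* (0.83), *Itgae* (0.82) and *Zfp953* (0.81). *Agtr1a* and *Lpar5* also belong to the list of nonpeptidergic neuron genes described next. The libraries share ganglion, neuronal content and depth, so the values describe likeness and carry no test.

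Of 18 other genes of nonpeptidergic neurons, none had an adjusted p under 0.05 by edgeR in any pair. At an unadjusted p under 0.05, 6 of 15 tested were higher and 1 lower for L3-L5 DRG over NG/JG, where 6.04% of all genes passed in either direction. It was 4 of 15 higher for T10-L1 DRG over NG/JG (5.91% of genes), 9 of 16 for L3-L5 DRG over TG (18.2%) and 5 of 16 for T10-L1 DRG over TG (21.6%), none lower. For TG over NG/JG it was 1 higher and 1 lower of 14 (10%), and none of 18 passed between the 2 kinds of DRG (6.07%). DESeq2 called 6, 3, 8 and 4 of them as higher in the first 4 of these pairs, where it called 5.66%, 6.13%, 11.3% and 15.4% of all genes. It called 3 for TG over NG/JG (6.35%) and 0 between the 2 kinds of DRG (0.499%). The medians of their log2 fold changes were 2.77, 1.84, 2.13, 1.22 and 1.12 for the 4 pairs of DRG against NG/JG or TG and the 2 kinds of DRG, beside -0.01, -0.02, 0.03, 0.03 and 0.03 over all genes. *Scn10a*, the sodium channel Nav1.8, averaged 694 CPM for L3-L5 DRG, 261 for T10-L1 DRG, 70 for TG and 71.7 for NG/JG. *P2rx3*, an ATP receptor subunit, was at 312, 133, 32.4 and 159 CPM in the same order. The NG/JG libraries differed widely in *P2rx3*, at 152, 39.4, 446 and 0.62 CPM in libraries 1 to 4. *Cd55*, a complement regulator, was at 357, 222, 70.1 and 48.7 CPM, and *Lpar1*, a lysophosphatidic acid receptor, at 544, 733, 338 and 897 CPM.

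Of 12 genes of the transcription and growth factor programme of these neurons none passed at an adjusted p under 0.05 by edgeR. At an unadjusted p under 0.05, 4 of 12 were higher for L3-L5 DRG over TG (18.2% of all genes) and 2 for T10-L1 DRG over TG (21.6%), 3 for L3-L5 DRG over T10-L1 DRG (6.07%) and 2 for L3-L5 DRG over NG/JG (6.04%). Lower were *Isl1* for T10-L1 DRG over NG/JG and *Cbfb* for L3-L5 DRG and for TG over NG/JG, 1 of 12 in each of these pairs. DESeq2 called 3 higher for L3-L5 DRG over TG (11.3% of genes), 1 higher for T10-L1 DRG over TG (15.4%) and 0 in the other pairs. *Ret*, the GDNF family receptor kinase, averaged 386 CPM for L3-L5 DRG, 127 for T10-L1 DRG, 57.1 for TG and 36.3 for NG/JG. *Klf7* was at 198, 132, 174 and 131 CPM in the same order, and *Cbfb*, the partner of Runx factors, at 106, 104, 49.1 and 186 CPM.

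A list of 13 other counted genes, 12 of the family and the Mas receptor *Mas1*, summed to no more than 13.5 CPM in any library. The highest was *Mrgpra2b*, at 3.53 CPM for L3-L5 DRG, 2.76 for T10-L1 DRG, 0.561 for TG and 0 for NG/JG, followed by *Mrgpra2a* at 2.27, 0.36, 0.404 and 0 CPM. *Mrgprh* had reads in 4 libraries, all of DRG, mostly in T10-L1 DRG library 1 (38 counts) and L3-L5 DRG library 4 (19 counts). *Mrgprg* had reads in 2 libraries. In NG/JG 12 of the 13 were at 0 in all libraries. *Mrgprx2*, which the list left out, had 16 counts in all, 14 of them in T10-L1 DRG library 1 (2.14 CPM). *Mrgprb2*, the receptor of mast cells, had no read in any of the 16 libraries. Of 7 mast cell markers, *Mcpt4* reached 22.8 CPM, *Cma1* 11.4 CPM and *Cpa3* 2.75 CPM in TG library 2, and *Tpsb2* reached 15 CPM in L3-L5 DRG library 4. In NG/JG 6 of the 7 were at 0 in all libraries.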

How the data were processed

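Single reads of 50 bases from oligo dT, SMART-seq2 cDNA of sorted neurons were, per the labels and the study's methods, demultiplexed with bcl2fastq or CASAVA, aligned to mm9 with TopHat2 at default settings and counted gene by gene in HTSeq. What the authors deposited are raw counts, without normalization; tool versions, annotation and strand setting are not given in the sources used here. The counter's own totals were left out of the tests. Each pair of ganglia was fitted on its 8 libraries in R 4.3.3 and edgeR 4.0.16 by the quasi-likelihood test, after filterByExpr and TMM scaling, with Benjamini-Hochberg adjustment, and 1 F test used all 16 libraries. DESeq2 1.42.0, RLE factors, no filter, all libraries in 1 fit, the replicate number as a block and each library left out in turn were the alternatives, and the fits were tested on counts simulated for T10-L1 DRG over NG/JG, where edgeR called only genes that had been changed, though a minority of them, and DESeq2 called more unchanged than changed genes. CPM used reads on genes, the floor was 3 counts, and correlations used log2(CPM + 1). Like genes were sought for members with at least 3 counts in 8 or more libraries, among genes averaging at least 10 counts. Correlations with marker sums were taken for *Mrgprd*, *Mrgpre* and *Mrgprf*. Exon lengths, coordinates and 50-base windows came from GENCODE mouse release 1 on NCBIM37, and coding sequences were aligned with Biopython 1.88. Depth was 4735624 to 13333318 reads on genes. No pair of libraries of 1 ganglion had counts within sampling noise (chi-square per gene at least 31.6). The 7 members and the lists were chosen with earlier results of these data known; of each list the 4 genes with the highest mean CPM were named, and single markers, *Camp*, *Penk* and *Mrgprb2* were named after their values were seen. One listed gene is not reported here.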

Additional observations from a re-analysis of the deposited data

Results flagged for a closer look

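In 26 groups of 4 libraries with any reads of a member, the highest or lowest library was compared with the others by Dixon's test of its gap over the whole range, at the 95% level. In 9 groups 1 library stood apart, always as the highest. Chance alone flags about 1 in 20 groups if the values are normally distributed. The test was run on untransformed CPM, for which that rate need not hold, so 9 of 26 is not read as an excess. Groups with reads in a single library are flagged by construction.

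*Mrgpra3* stood apart in NG/JG library 3, at 22.1 CPM (160 counts) beside 0 to 0.139 CPM, and in L3-L5 DRG library 1, at 19.7 CPM (203 counts) beside 0 to 0.845 CPM. *Mrgpre* stood apart in NG/JG library 3, at 7.6 CPM (55 counts) beside 0 to 0.974 CPM, and in L3-L5 DRG library 3, at 184 CPM (2230 counts) beside 22.4 to 49.5 CPM. *Mrgprb4* stood apart in L3-L5 DRG library 4 at 2.75 CPM (13 counts) and in T10-L1 DRG library 1 at 0.306 CPM (2 counts), with 0 in the others. *Mrgprx1* stood apart in TG library 4 at 1.58 CPM (9 counts) and in NG/JG library 1 at 0.139 CPM (1 count). *Mrgprb5* stood apart in NG/JG library 4 at 0.103 CPM (1 count). NG/JG library 3 thus held the highest *Mrgpra3* of all 16 libraries together with the highest *Mrgpre* and *P2rx2* of NG/JG and no read of *Mrgprf*.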

How the results depend on the processing

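Of 327 refits of the members' log2 fold changes, 293 kept their direction and side of the threshold, 18 passed it and 16 reversed, none of them of *Mrgprd*, *Mrgpre*, *Mrgprb5* or *Mrgprx1*. The reversals were of values near 0: *Mrgpra3* in L3-L5 DRG over T10-L1 DRG (main -0.16, -4.09 to 0.25 with 1 library left out), in T10-L1 DRG over NG/JG (main -0.03, -0.48 to 6.54, the last without NG/JG library 3) and in T10-L1 DRG over TG (main -0.10, -0.50 to 1.74, and 0.14 with no filter), and *Mrgprf* in L3-L5 DRG over NG/JG (main -0.20, -0.62 to 0.49). The replicate block reversed *Mrgpra3* to 4.79 in T10-L1 DRG over NG/JG and 1.46 in T10-L1 DRG over TG and *Mrgprf* to 0.27 in L3-L5 DRG over NG/JG. Under the block the adjusted p of *Mrgprd* by edgeR was 0.386 for T10-L1 DRG over NG/JG and 0.0564 for L3-L5 DRG over NG/JG, and 0, 0, 1 and 184 genes were called for T10-L1 DRG over NG/JG, T10-L1 DRG over TG, TG over NG/JG and any difference. Same-numbered libraries deviated together with correlations of -0.10 to 0.21, in no pair of ganglia all above 0.1, so the numbers were not taken to pair libraries. The causes were not tested.

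In the order of pairs of the report (L3-L5 over T10-L1 DRG, T10-L1 DRG over NG/JG, L3-L5 DRG over NG/JG, T10-L1 DRG over TG, L3-L5 DRG over TG, TG over NG/JG, any difference), edgeR called 0, 4, 0, 758, 0, 6 and 429 genes, DESeq2 78, 909, 819, 2199, 1612, 854 and 1868. Members called by DESeq2 were 0, 2, 4, 1, 2, 1 and 3. With no filter the counts from the second pair on were 9, 2, 427, 39, 56 and 241, and 1 member passed in each of the pairs of DRG and NG/JG. With all 16 libraries in 1 fit they were 54, 83, 238, 206 and 484, and *Mrgprd* passed in all 3 pairs with NG/JG. With 1 library left out they were 1 to 5, 0 to 2, 0 to 3583, 0 to 2038, 1 to 325 and 33 to 1035, the highest of the last 4 without TG library 1, and members called were 0 to 1. Without TG library 1 and L3-L5 DRG library 4, added after seeing the data, 2564 genes and 2 members passed in L3-L5 DRG over TG and 1137 genes for any difference. Depth limits *Mrgprb4*, *Mrgprb5* and *Mrgprx1*, whose counts were often under the floor of 3.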

Other observations

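Genes of signalling downstream of the receptors were counted in all ganglia. Of 23 listed, 1 was called by edgeR in any pair, *Plcb3*, a phospholipase C beta that these receptors use, which rose in T10-L1 DRG over TG (log2 fold change 1.90, SE 0.43, adjusted p = 0.0368, where 5.87% of genes were called). That call ended without T10-L1 DRG library 1 or 2 or TG library 2 or 3 and under the replicate block, in each of which edgeR called 0 genes. DESeq2 called 4 of the list as higher and 1 as lower for T10-L1 DRG over TG (15.4% of genes) and 4 as higher for L3-L5 DRG over TG (11.3%). It called 1 as higher for each kind of DRG over NG/JG (6.13% of genes for T10-L1 DRG and 5.66% for L3-L5 DRG), 1 as lower for TG over NG/JG (6.35%) and 0 between the 2 kinds of DRG. *Plcb3* averaged 489 CPM for L3-L5 DRG, 261 for T10-L1 DRG, 180 for NG/JG and 55.3 for TG. *Gnaq*, the Gq alpha subunit, was at 569, 338, 331 and 157 CPM, *Gng2* at 452, 355, 364 and 298 CPM and *Gnb1* at 1350, 1043, 1091 and 1358 CPM in the same order. Both *Gnaq* and *Plcb3* were thus present in NG/JG, where *Mrgprd* was at 0.207 to 1.93 CPM.

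Of 13 genes for ligand precursors and related enzymes, edgeR called 2, both in T10-L1 DRG over TG, where 7 of the 13 were tested and 5.87% of genes were called. DESeq2 called 1 higher and 2 lower in that pair (15.4% of genes), 2 higher and 1 lower for L3-L5 DRG over TG (11.3%), 1 higher and 1 lower for T10-L1 DRG over NG/JG (6.13%), 2 higher for L3-L5 DRG over NG/JG (5.66%) and 2 higher for TG over NG/JG (6.35%). *Pomc*, the precursor of pituitary melanocortins, fell by 8.65 on the log2 scale (SE 1.44, adjusted p = 0.0254), at means of 435 CPM in TG and 1.49 in T10-L1 DRG. TG libraries 1 to 4 had 332, 819, 584 and 5.62 CPM of *Pomc*. *Camp*, the cathelicidin gene of neutrophils, named after its values were seen, rose (adjusted p = 0.0286); it was at 1.64 to 58.4 CPM in T10-L1 DRG and at 0 in all TG libraries, where the counted neutrophil markers, *Camp* among them, summed to 0 to 39.3 CPM beside 61 to 899 CPM in T10-L1 DRG. *Tac1*, the substance P gene, averaged 825 CPM in L3-L5 DRG, 418 in TG, 218 in T10-L1 DRG and 37.6 in NG/JG. The precursor of the *Mrgprx1* peptides, *Penk*, passed in none of the 6 pairs, with adjusted p of 0.406 to 1 over both tools.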
